A study of Mus musculus with 10 samples.

Results

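DSS-treated ERdj5-KO colon was compared with DSS-treated WT colon across all genes, using 6 of the 10 libraries of the series, 3 for each genotype. The members were chosen by genotype and treatment alone, as the count columns name them (numbers 2, 3 and 4 of the columns named B6, taken as WT, and numbers 1, 2 and 4 of the KO columns). All mice were 8-week-old females, and the DSS-treated mice had drunk 2% DSS, a sulfated polymer toxic to colon epithelium, for 5 days before the colon was taken on Day 5. The other 4 libraries, 2 from untreated WT and 2 from untreated KO mice, served for the estimate of spread and for the difference between the genotypes without DSS. No transgene, Cre or further agent is named for any group. WT C57BL/6 mice had been bought from Koatech and ERdj5-KO mice from RIKEN, and the paper states that mice were bred at Kangwon National University. No source used here says that WT and KO mice were littermates, so the genotype and the origin of the lines cannot be told apart. The titles number the colons of each group, but no source used here says whether a library came from 1 mouse or which libraries were made together, and p-values measure the spread between libraries.

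ERdj5 is a protein of the endoplasmic reticulum (ER) that binds the chaperone BiP through its J domain, reduces disulfide bonds of misfolded proteins and helps to send them to ER-associated degradation. Goblet cells of the colon fold and secrete very large amounts of the disulfide-linked mucin MUC2, which forms the mucus gel over the epithelium. When unfolded proteins build up in the ER, the sensors IRE1, PERK and ATF6 raise chaperones, degradation enzymes and amino acid supply, a programme called the unfolded protein response (UPR). DSS colitis damages the surface epithelium, after which neutrophils enter the tissue and surviving epithelial cells spread over the wound.

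Total counts of the 6 DSS-treated libraries lay between 54392227 and 72197887 reads. Levels are given as CPM, which are read counts scaled by library total and TMM factor, in the order WT 2, 3 and 4 and KO 1, 2 and 4, and WT and KO libraries are those of DSS-treated mice unless called untreated. A gene was called when its adjusted p was under 0.05 in the quasi-likelihood test of edgeR, after Benjamini-Hochberg adjustment over 20472 tested genes, and all adjusted p-values come from it unless the interaction is named. "Rose" and "fell" are used for called genes and mean higher and lower in KO, and values with ± are group means with their SD (n = 3 libraries per group). Markers of the colon were present in all 6 libraries, with the summed level of 13 genes shared by all gut epithelium at 20896 to 22992 CPM in WT and 17790 to 27542 CPM in KO libraries, and the distal colon gene Hoxb13 at 401 ± 28.2 CPM in WT and 382 ± 71.9 CPM in KO. The libraries of KO mice differed more among themselves, and KO library 1 had the lowest and KO library 4 the highest sum of epithelial genes. The summed level of 22 smooth muscle genes was 4699 to 8201 CPM in WT and 1471 to 2128 CPM in KO libraries, so the groups differed in how much muscle RNA they held. In whole colon tissue, fewer cells of a type and less RNA per cell cannot be told apart.

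Dnajc10, the deleted gene (gene ID 66861, chromosome 2 from 80315446 to 80354055, GRCm38), had 139.7, 138 and 121 CPM in the WT and 25.6, 23.9 and 30.4 CPM in the KO libraries. Every KO library lay far below every WT library, and the remaining KO reads cannot be placed within the gene. The log2 fold change was -2.32 (SE 0.12, adjusted p = 5.12e-05).

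Of the 20472 genes tested, 3069 (15.0%) rose and 3023 (14.8%) fell, 6092 (29.8%) in all. The groups did not overlap for 8815 genes (43.1%). Among called genes, 650 rose and 1594 fell by at least 2-fold, and 90 rose and 135 fell by at least 8-fold. The median change of all tested genes was -0.04 on the log2 scale. WT library 3 weighed most on the calls: without it 3243 genes were called, of which 3216 were among the 6092. Of the 178 called genes named here, 39 lost their call without at least 1 library, 35 of them without WT library 3, and the libraries are given beside those genes. In lists with no gene called in a direction, an unadjusted p under 0.05 gave at most 2 genes and DESeq2 at most 1 gene in that direction. The difference between the genotypes itself differed with DSS (interaction) for 5507 genes (26.9%), and 3811 (62.6%) of the 6092 called genes were among them. With upper-quartile scaling, 6075 genes were called, of which 40.5% rose instead of 50.4%, and the median of all genes moved by -0.07.

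By the rule for named genes, the 20 largest rises among genes with a mean of at least 3 on the log2 CPM scale ran from 2.06 to 5.45 on the log2 fold scale. They were Cxcl5, Cxcl2, Plet1, Lrg1, Saa3, Ly6d, Plat, Ccl20, Il1b, Mfsd2a, Clca3a2, Ak4, Mt2, Plaur, Il33, Socs1, Aldh1a3, Cwh43, Ier3 and Tmem254a, a mixture of chemokines, epithelial injury genes and metal-binding genes. Lrg1, an acute-phase glycoprotein, had 72.9, 14.1 and 53.6 CPM in the WT and 559, 301 and 697 CPM in the KO libraries (log2 fold change 3.47, SE 0.56, adjusted p = 0.003). Mfsd2a, a lipid transporter, rose from 12.1 ± 4.11 to 70.002 ± 35.7 CPM. Ak4, an adenylate kinase of mitochondria, rose from 21.8 ± 11.996 to 124 ± 36.3 CPM. The 20 largest falls ran from -2.28 to -3.26 and were Dbp, Actg2, Apol9b, Myh11, Ddx60, Ifi44, Mptx1, Nxpe2, Flnc, Synm, Rsad2, Cyp2d12, Cnn1, Dnajc10, Tagln, Myl9, Sparcl1, Des, Gbp8 and Ifit1, most of them genes of smooth muscle or of the interferon response. Mptx1, a pentraxin of the gut, had 337, 78.03 and 327 CPM in the WT and 11.2, 31.1 and 73.3 CPM in the KO libraries (log2 fold change -2.69, SE 0.73, adjusted p = 0.0241). Ddx60, an antiviral helicase, fell from 99.2 ± 46.3 to 14.3 ± 5.73 CPM. In reads, the 10 called genes that gained most were Sprr2a2, Sprr2a1, Actb, Sprr2a3, Gpx2, Ldha, Clca3b, Pkm, Rpsa and Hsp90ab1, with 16977 CPM gained in all. The 10 that lost most, with 23735 CPM in all, were COX1, Muc3, ND4, Ceacam1, ATP6, Muc2, ND5, Zg16, Fcgbp and Clca1, which are mitochondrial, mucus or surface genes. Of these 60 genes, 13 lost their call without at least 1 library, among them Mptx1 without WT library 2, WT library 4, KO library 1 or KO library 2 (adjusted p = 0.0544 to 0.0666), Socs1 without WT library 2 or WT library 3 (adjusted p = 0.0576 to 0.0762), Ccl20 without WT library 3 (adjusted p = 0.0545), Ifi44 without WT library 3 or KO library 1 (adjusted p = 0.0607 to 0.0623), Sprr2a1 without any 1 of 7 libraries, WT library 3 among them (adjusted p = 0.0504 to 0.119), Sprr2a3 without WT library 3 (adjusted p = 0.0529) and ATP6 without any 1 of 6 libraries, WT library 3 among them (adjusted p = 0.0546 to 0.104).

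**Figure D1:**
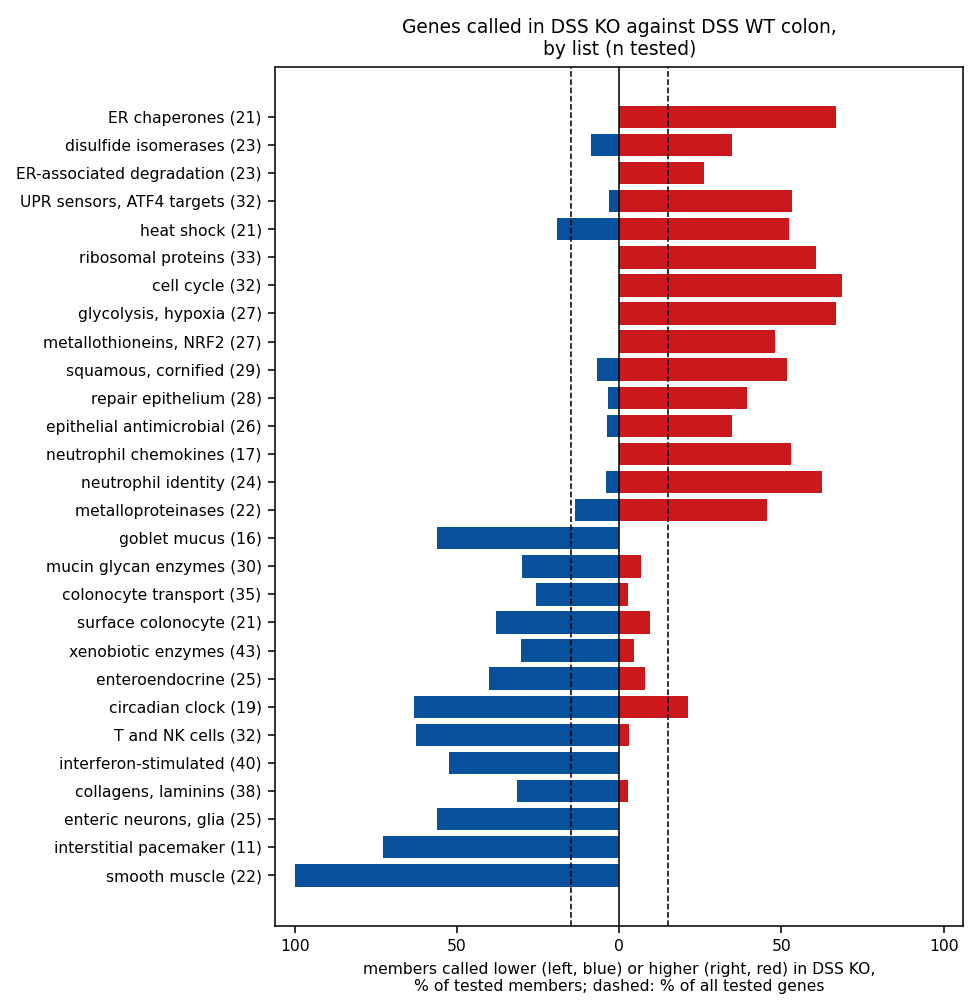
Share of the tested members of 28 gene lists that were called higher (red, to the right) or lower (blue, to the left) in DSS-treated KO against DSS-treated WT colon, in % of tested members, with the number tested in parentheses; dashed lines mark the shares of all tested genes (15.0% higher and 14.8% lower). The ER, growth, glycolysis, squamous and neutrophil lists extend to the right, and the goblet, clock, T and NK cell, interferon and muscle wall lists to the left.

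Of 21 chaperones of the ER tested, 14 rose and none fell, with a median log2 fold change of 0.47, beside 15.0% of all genes that rose. Hspa5, which encodes BiP, the partner of ERdj5, had 559, 399.9 and 604 CPM in the WT and 987, 685 and 1162 CPM in the KO libraries. No KO library overlapped the WT libraries, and KO library 2 was closest to them. The log2 fold change was 0.86 (SE 0.21, adjusted p = 0.0135). Creld2, a secreted ER stress protein, had 53.2, 38.9 and 51.98 CPM in the WT and 137, 104 and 143 CPM in the KO libraries, again with no overlap (log2 fold change 1.41, SE 0.16, adjusted p = 0.000709). Manf, a factor that binds BiP, had 130.2, 96.5 and 122 CPM in the WT and 271, 227 and 332 CPM in the KO libraries (log2 fold change 1.25, SE 0.16, adjusted p = 0.00102). KO library 2 was the lowest KO library for all these genes. Hyou1, the nucleotide exchange factor of BiP (124 ± 26.8 CPM in WT and 258 ± 47.6 CPM in KO), Hsp90b1, which encodes GRP94 (618 ± 80.8 CPM in WT and 1131 ± 189 CPM in KO), and the lectin chaperones Calr (737 ± 94.9 CPM in WT and 1150.3 ± 64.1 CPM in KO) and Canx (359.5 ± 31.02 CPM in WT and 539 ± 76.7 CPM in KO) also rose. Dnajb11 and Dnajc3, J-domain partners of BiP like ERdj5, rose by 0.82 and 0.42 on the log2 scale (SE 0.14 and 0.12, adjusted p = 0.0027 and 0.0249). Dnajb9, another J-domain partner of BiP, was not called (30.5 ± 2.22 CPM in WT and 34.4 ± 9.79 CPM in KO, adjusted p = 0.519), nor was the glycoprotein folding sensor Uggt1 (134 ± 13.1 CPM in WT and 141 ± 14.8 CPM in KO, adjusted p = 0.676). Leaving out WT library 3, 9 of the 21 chaperones rose, Hspa5 missed the threshold (adjusted p = 0.0531), and the call of Dnajc3 was lost without WT library 3 or KO library 4 (adjusted p = 0.0557 to 0.101). Without DSS the chaperones were not high in KO colon: Hspa5 had 493 and 519 CPM in untreated WT and 303 and 344 CPM in untreated KO libraries, and the interaction was called in the higher direction for 15 of the 21.

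Several of these genes share the ER stress element, the promoter sequence through which ATF6 and NF-Y raise ER chaperones. It was searched as CCAAT, any 9 bases and CCACG, on both strands of RefSeq promoters of GRCm38.p6 (250 bases before to 50 after each start). Of the 21 chaperones 17 had a promoter there, and 6 of these 17 genes (35.3%) held the element, beside 39 of all 32851 promoters (0.119%). All 6 rose. Because the element is known for raising ER chaperones, its share in a list of ER chaperones is not a separate finding. It was held by 1 of 18 disulfide isomerases with a promoter (Pdia6, which rose). Of 17 genes of ER-associated degradation with a promoter, 2 held it (Syvn1, which rose, and Derl3, which did not). The stretches of the 6 chaperones that hold the element are shown with it in capitals, 5′ to 3′ on the strand of the gene.
Hspa5 (chr2:34772005-34772063, plus strand): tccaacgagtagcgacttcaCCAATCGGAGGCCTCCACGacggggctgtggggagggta
Creld2 (chr15:88819500-88819558, plus strand): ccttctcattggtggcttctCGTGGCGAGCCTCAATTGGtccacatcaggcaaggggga
Hsp90b1 (chr10:86705618-86705676, minus strand): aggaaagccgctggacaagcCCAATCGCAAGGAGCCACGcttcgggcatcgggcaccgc
Calr (chr8:84847055-84847113, minus strand): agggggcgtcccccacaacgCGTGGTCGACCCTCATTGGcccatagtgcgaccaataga
Canx (chr11:50325780-50325838, minus strand): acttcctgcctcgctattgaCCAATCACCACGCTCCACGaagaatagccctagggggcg
Dnajc3 (chr14:118937807-118937865, plus strand): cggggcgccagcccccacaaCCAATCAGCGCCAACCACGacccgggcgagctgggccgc
In Creld2 and Calr the element lies on the opposite strand, so the capitals read as its reverse complement, and the Hsp90b1 promoter holds it 2 times, of which 1 is shown. Over all genes with the element in a promoter, 23 were tested, of which 11 rose and 1 fell. The other genes with it that rose were Pdia6, Syvn1, Hnrnpa3, Xlr3a and Xlr3c. Calls were lost for Hnrnpa3 without any 1 of 8 libraries, WT library 3 among them (adjusted p = 0.0596 to 0.162) and for Xlr3c without any 1 of 7 libraries, WT library 3 among them (adjusted p = 0.0514 to 0.134). A match is a description of the letters, and the factors that bind there were not measured.

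Disulfide isomerases and oxidases, the family to which ERdj5 belongs, rose less evenly. Of 23 tested without Dnajc10, 8 rose and 2 fell. Ero1l, the oxidase that supplies disulfide bonds and is also raised by hypoxia, had 84.1, 72.998 and 81.96 CPM in the WT and 154, 155 and 262 CPM in the KO libraries, with all KO above all WT libraries (log2 fold change 1.26, SE 0.19, adjusted p = 0.0019). P4hb, which encodes the isomerase PDI, had 838, 739 and 728 CPM in the WT and 1229, 1139.8 and 1315 CPM in the KO libraries (log2 fold change 0.68, SE 0.12, adjusted p = 0.00316), and Pdia6, Pdia4 and Erp29 rose by 0.67, 0.61 and 0.73 on the log2 scale. No overlap between genotypes was seen for Ero1l and P4hb. Txndc16 and Tmx4 fell, by 0.57 and 0.65 on the log2 scale. Agr2, the isomerase of goblet cells that is needed to make MUC2, did not pass the test (1093 ± 100.4 CPM in WT and 1156 ± 129 CPM in KO, adjusted p = 0.681). For degradation from the ER, 6 of 23 genes rose, none fell and 17 were not called, beside 15.0% of all genes that rose. The median log2 fold change of this list was 0.13. Among the genes that rose were Syvn1, the ubiquitin ligase HRD1 (64.8 ± 7.15 CPM in WT and 102 ± 11.6 CPM in KO, log2 fold change 0.66, SE 0.12, adjusted p = 0.0041), Selenos, Derl2 and the extracting ATPase Vcp (329.8 ± 42.5 CPM in WT and 505 ± 38.4 CPM in KO). Edem1, which hands misfolded glycoproteins to this pathway and works with ERdj5, did not pass the test (173 ± 5.87 CPM in WT and 171 ± 23.3 CPM in KO, log2 fold change -0.02, SE 0.11, adjusted p = 0.928).

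**Figure D2:**
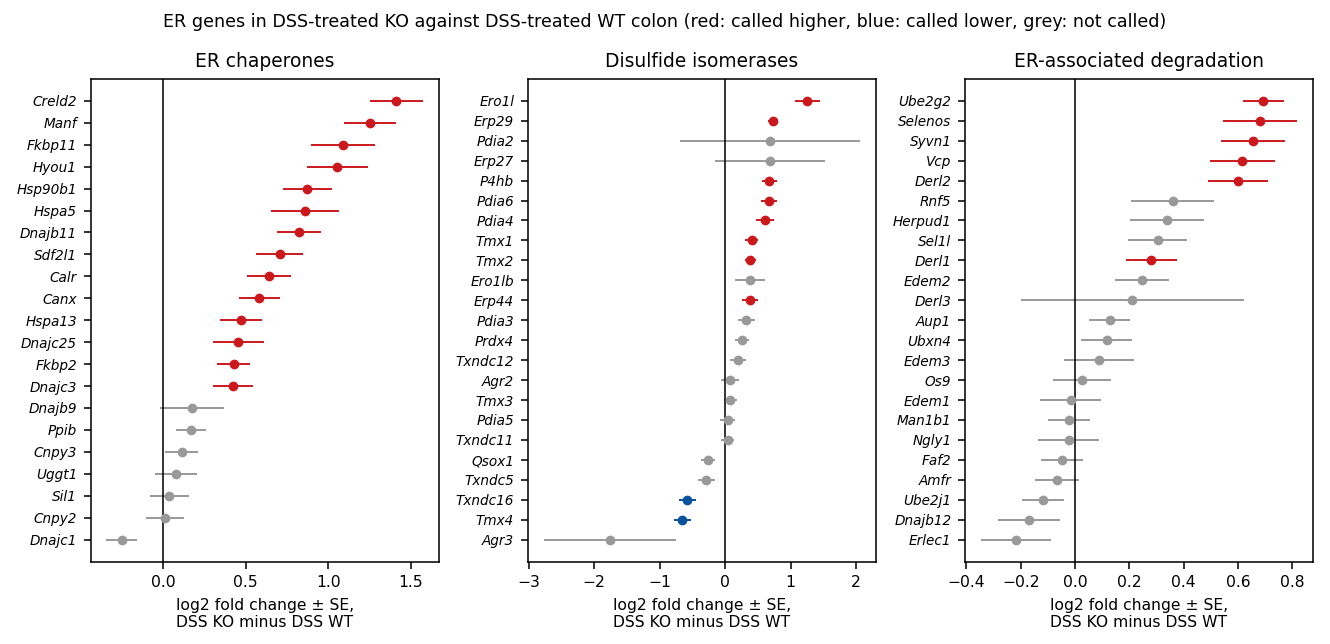
Log2 fold change of DSS-treated KO minus DSS-treated WT colon for ER chaperones, disulfide isomerases (without Dnajc10) and genes of ER-associated degradation, with points for the estimate and bars for ± 1 SE from the fit of 10 libraries; red genes were called higher, blue genes lower and grey genes not. Creld2, Manf, Fkbp11 and Hyou1 lie furthest to the right among chaperones and Ero1l among isomerases.

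Of 32 genes of the UPR sensors and of the targets of ATF4, the transcription factor downstream of PERK, 17 rose and 1 fell. Atf4 had 139, 131 and 134 CPM in the WT and 225, 210.1 and 275 CPM in the KO libraries, with no overlap (log2 fold change 0.82, SE 0.12, adjusted p = 0.00145). Genes of amino acid supply rose with it: Asns, asparagine synthetase, had 30.1, 24.2 and 35.3 CPM in the WT and 86.2, 62.97 and 67.9 CPM in the KO libraries (log2 fold change 1.28, SE 0.17, adjusted p = 0.0013), and the serine synthesis enzymes Psat1 and Phgdh rose by 1.76 and 1.53 on the log2 scale. KO libraries were above WT libraries in each case. Chac1, which breaks down glutathione under ER stress, rose from 1.03 ± 0.367 to 4.59 ± 0.963 CPM (a log2 fold change of 2.14 with SE 0.35, adjusted p = 0.00263). Ddit3, which encodes CHOP, did not pass the test (11.99 ± 0.827 CPM in WT and 10.3 ± 1.27 CPM in KO, adjusted p = 0.259), and neither did Xbp1 (289 ± 28.2 CPM in WT and 393 ± 120.2 CPM in KO, adjusted p = 0.0938). The 1 gene that fell was Ern2, the IRE1 isoform of goblet and other mucus cells, which had 56.3, 55.2 and 51.8 CPM in the WT and 26.2, 25.8 and 23.2 CPM in the KO libraries (log2 fold change -1.12, SE 0.11, adjusted p = 0.000429). Its KO libraries were all about the same distance below the WT libraries. In the fit without WT library 3, 11 genes of this list rose.

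Further genes of protein processing that were measured in the study moved in different directions. Hsph1, a cytosolic chaperone, rose (42.5 ± 11.5 CPM in WT and 98.5 ± 28.01 CPM in KO, log2 fold change 1.21, SE 0.23, adjusted p = 0.00546). Sec31b, a coat protein of ER exit sites, had 2.57, 2.59 and 1.81 CPM in the WT and 0.595, 0.854 and 0.715 CPM in the KO libraries (log2 fold change -1.69, SE 0.30, adjusted p = 0.00407). The small heat shock gene Cryab had 9.74, 14.2 and 13.05 CPM in the WT and 5.402, 7.68 and 3.09 CPM in the KO libraries (log2 fold change -1.19, SE 0.31, adjusted p = 0.0195). Both were low and lower in KO. Tram1l1, at 0.536 ± 0.179 CPM in WT and 0.256 ± 0.02 CPM in KO, also fell. Its call was lost without any 1 library but WT library 2 (adjusted p = 0.0643 to 0.157). That of Cryab was lost without WT library 3, WT library 4 or KO library 1 (adjusted p = 0.0509 to 0.0687). In the heat shock list, 11 of 21 rose, led by the mitochondrial chaperones Hspe1 and Hspd1 (1.23 and 1.17 on the log2 scale), and 4 fell. The 4 that fell were Cryab, Hspb8, Hspb1 and Dnajb4, of which Cryab, Hspb8 and Hspb1 are abundant in muscle, and the call was lost for Dnajb4 without WT library 3 (adjusted p = 0.0703). Without WT library 3, 8 rose and 2 fell. Ribosomal protein genes rose in 20 of 33 cases with none lower, each by little (median log2 fold change 0.35).

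Of 16 mucus genes of goblet cells tested, 9 fell and none rose (median log2 fold change -0.68), beside 14.8% of all genes that fell. Muc2 had 3125, 3086 and 3202 CPM in the WT and 1417, 2029 and 1844 CPM in the KO libraries. All KO libraries were below all WT libraries, which agree closely among themselves. The log2 fold change was -0.83 (SE 0.14, adjusted p = 0.00352). Untreated colon showed a gap of the same kind, with Muc2 at 2566 and 2818 CPM in untreated WT and 1624 and 1830.0 CPM in untreated KO libraries, and the interaction was not called (adjusted p = 0.568). Clca1, a secreted protease that shapes the mucus gel, had 1364, 1256 and 1895 CPM in the WT and 218, 511 and 484 CPM in the KO libraries, with KO library 1 the lowest (log2 fold change -1.896, SE 0.31, adjusted p = 0.00292). In untreated colon Clca1 lay the other way, at 2363 and 1963 CPM in untreated WT and 2661 and 3696 CPM in untreated KO libraries. Fcgbp, a mucus protein that binds MUC2, had 2799.6, 2455 and 2859 CPM in the WT and 967, 1796 and 1422 CPM in the KO libraries (log2 fold change -0.95, SE 0.20, adjusted p = 0.00743). Zg16, a lectin of the inner mucus layer, had 3213, 1988 and 2633 CPM in the WT and 638, 1749 and 1496 CPM in the KO libraries (log2 fold change -1.01, SE 0.34, adjusted p = 0.0474), and its call was lost without any 1 of 8 of the 10 libraries, all but KO libraries 1 and 2 (adjusted p = 0.0602 to 0.128). Klk1, a secreted protease, and Bcas1 fell by 1.59 and 1.21 on the log2 scale. Tff3 and Spink4, further goblet products, did not pass the test (652 ± 105 CPM in WT and 406 ± 159 CPM in KO for Tff3, and 507 ± 87.4 CPM in WT and 359 ± 86.1 CPM in KO for Spink4, adjusted p = 0.0646 and 0.0727).

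Among 14 regulators of goblet cells, 3 fell, none rose and 11 were not called, so the share that fell was near the 14.8% of all genes. Atoh1, the transcription factor that starts the secretory lineage, fell from 42.7 ± 8.46 to 28.99 ± 2.698 CPM (a log2 fold change of -0.56 with SE 0.17, adjusted p = 0.0317), a call lost without WT library 2 or 3 or KO library 2 or 4 (adjusted p = 0.0621 to 0.104). Spdef and Klf4, which act later, did not pass (42.4 ± 6.76 CPM in WT and 50.8 ± 4.54 CPM in KO for Spdef, and 668 ± 22.3 CPM in WT and 584 ± 208 CPM in KO for Klf4, adjusted p = 0.124 and 0.531). The enzymes that build mucin sugar chains split: 9 of 30 fell and 2 rose. Galnt5, which adds the first sugar, had 38.7, 38.2 and 35.3 CPM in the WT and 16.4, 16.9 and 17.1 CPM in the KO libraries (log2 fold change -1.16, SE 0.08, adjusted p = 8.64e-05), a gap far wider than the spread within either group. Gcnt1, which branches the chains, and the sialyltransferases St6galnac2 and St3gal2 fell by 0.87, 1.02 and 1.07 on the log2 scale. Gcnt4 and Galnt3, enzymes of the same steps, rose (2.73 ± 0.564 CPM in WT and 9.88 ± 1.03 CPM in KO for Gcnt4, and 79.1 ± 6.205 CPM in WT and 130.0 ± 21.9 CPM in KO for Galnt3). Of the membrane-bound mucins, Muc3 had 6603, 7597 and 8983 CPM in the WT and 1972, 2913 and 3175 CPM in the KO libraries (log2 fold change -1.52, SE 0.20, adjusted p = 0.00116), which was among the largest losses of reads in the comparison. Its untreated levels were 6566 and 6545 CPM in untreated WT and 6907 and 8451 CPM in untreated KO libraries, and the KO libraries with DSS were the lowest of all. Muc13, at 4043 ± 619.7 CPM in WT and 3961 ± 1005 CPM in KO, did not pass (adjusted p = 0.919). Muc1 rose (21.3 ± 5.62 CPM in WT and 36.4 ± 7.42 CPM in KO). Calls were lost for Gcnt1 without WT library 3 (adjusted p = 0.0533), St3gal2 without WT library 3 or WT library 4 (adjusted p = 0.0514 to 0.0651) and Muc1 without WT library 3 or KO library 4 (adjusted p = 0.0648 to 0.0695).

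**Figure D3:**
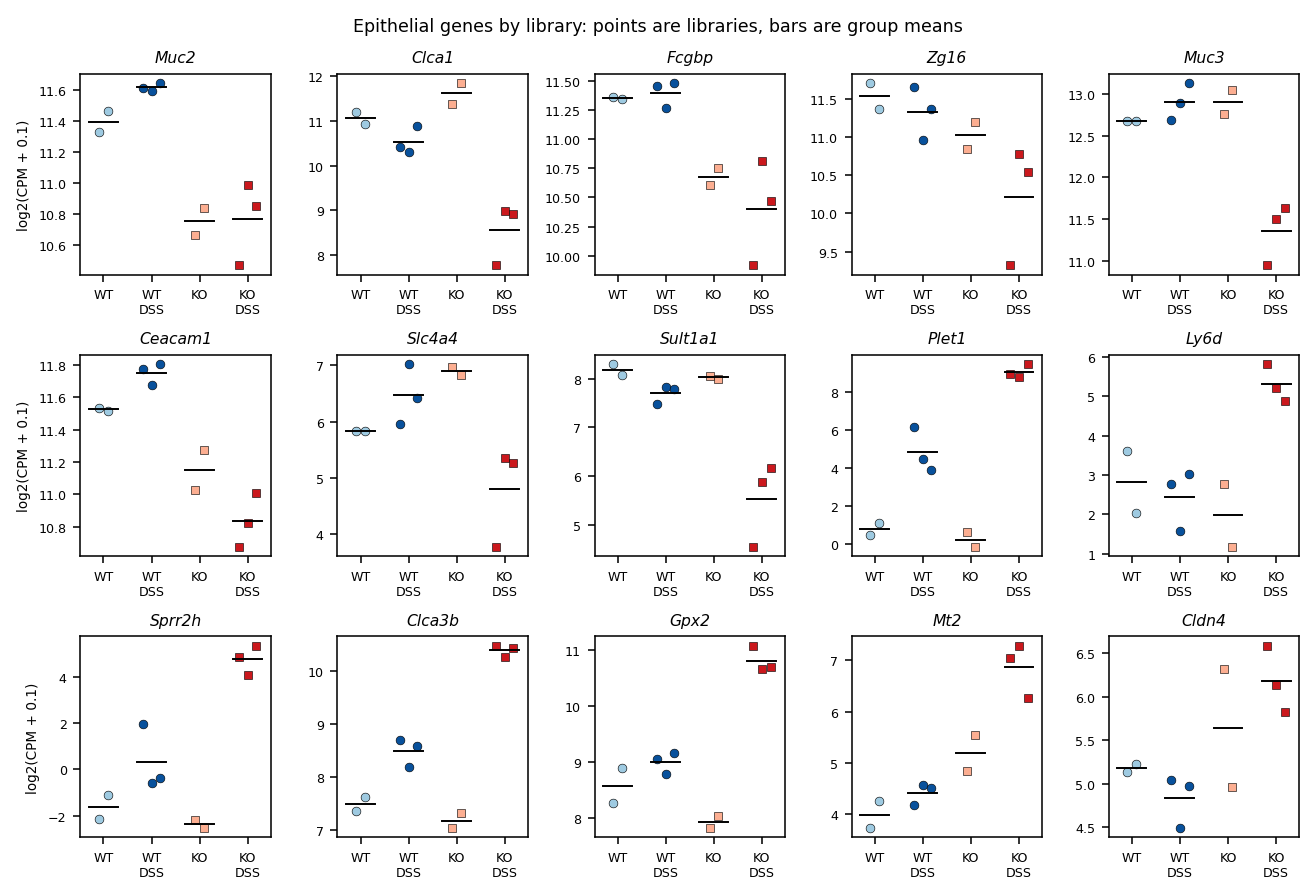
Levels of 15 epithelial genes in each of the 10 libraries, as log2(CPM + 0.1), with a point for each library (circles WT, squares KO) and a bar for the mean of each group. DSS-treated KO libraries lie below DSS-treated WT libraries for Muc2 through Sult1a1 and above them for Plet1 through Cldn4, and for Muc2 and Fcgbp the untreated KO libraries are low as well.

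Absorptive and surface genes fell more often than they rose. Of 35 genes of ion and water transport in colonocytes, 9 fell and 1 rose, and of 21 surface colonocyte markers 8 fell and 2 rose. Slc4a4, the basolateral bicarbonate transporter, had 62.1, 129 and 85.1 CPM in the WT and 13.6, 40.8 and 38.3 CPM in the KO libraries (log2 fold change -1.58, SE 0.39, adjusted p = 0.0165). Slc26a2, a sulfate transporter that supplies mucin sulfation, fell from 120.4 ± 14.1 to 49.5 ± 12.03 CPM (a log2 fold change of -1.28 with SE 0.22, adjusted p = 0.00357). KO library 1 was the lowest for Slc4a4. Slc26a3, the chloride-bicarbonate exchanger of the surface, did not pass (687 ± 83.7 CPM in WT and 389 ± 182 CPM in KO, adjusted p = 0.0876), nor did Car4 or Atp12a (796 ± 204 CPM in WT and 522 ± 289 CPM in KO for Car4, and 777 ± 206 CPM in WT and 609 ± 417 CPM in KO for Atp12a, adjusted p = 0.231 and 0.588). Leaving out WT library 3, 5 transport genes and 5 surface markers fell, and Slc4a4 was lost (adjusted p = 0.0634). Ceacam1, an adhesion protein of the brush border, had 3514, 3275 and 3580.3 CPM in the WT and 1634, 1809.6 and 2058 CPM in the KO libraries (log2 fold change -0.91, SE 0.13, adjusted p = 0.00143). Tmigd1, a surface adhesion protein of the same cells, went up instead, with 1.999, 1.16 and 1.21 CPM in the WT and 12.8, 7.57 and 10.3 CPM in the KO libraries (log2 fold change 2.81, SE 0.28, adjusted p = 0.000404). The groups did not overlap for either gene.

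Of 43 detoxifying enzymes of the epithelium, 13 fell and 2 rose (median log2 fold change -0.80). Sult1a1, a sulfotransferase, had 178, 229 and 222 CPM in the WT and 23.3, 58.98 and 71.5 CPM in the KO libraries (log2 fold change -2.03, SE 0.34, adjusted p = 0.0034). Abcb1a, the drug exporter P-glycoprotein, had 184, 170.4 and 209 CPM in the WT and 27.8, 61.96 and 57.4 CPM in the KO libraries (log2 fold change -1.94, SE 0.26, adjusted p = 0.00131). For both genes the lowest WT library lay more than 2-fold above the highest KO library. Abcb1a was high in untreated KO colon, at 231 and 201 CPM in untreated WT and 549 and 634 CPM in untreated KO libraries. Cyp2c55, a cytochrome of the colon surface, fell from 13.1 ± 8.85 to 1.86 ± 0.241 CPM. In fatty acid oxidation, 8 of 38 fell, 2 rose and 28 were not called, beside 14.8% and 15.0% of all genes. The median log2 fold change of this list was 0.02, so it did not fall as a whole. Among the genes that fell were Acsm3 (208 ± 12.7 CPM in WT and 102 ± 19.96 CPM in KO), Ppara and its coactivator Ppargc1a (73.5 ± 11.8 CPM in WT and 26.8 ± 10.8 CPM in KO). The call was lost for Ppara without WT library 2 or WT library 4 (adjusted p = 0.0532 to 0.0787). Without KO library 1, 7 rose and 8 fell.

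All 13 protein-coding genes of the mitochondrial genome were tested, of which 8 fell and none rose, a count that was 4 without WT library 2, WT library 3 or KO library 2. ND5, a subunit of complex I, had 2623, 2711 and 2254 CPM in the WT and 1168, 1013 and 1362 CPM in the KO libraries (log2 fold change -1.099, SE 0.15, adjusted p = 0.00137). KO libraries were all below WT libraries. COX1, which lost more reads than any other called gene, had 24938, 22676 and 19725 CPM in the WT and 13487, 13545 and 17932 CPM in the KO libraries (log2 fold change -0.58, SE 0.17, adjusted p = 0.0258), and its call was lost without WT library 2, WT library 3 or KO library 2 (adjusted p = 0.081 to 0.0845). ND1 did not pass (4999.6 ± 407 CPM in WT and 4886 ± 748 CPM in KO, adjusted p = 0.897). Together the 13 genes took 5.09% to 6.49% of the CPM in WT and 3.75% to 4.89% in KO libraries. Without DSS the KO libraries lay higher, with 4.99% and 5.49% in untreated WT and 7.04% and 7.92% in untreated KO libraries. With DSS, 9 of 35 nuclear genes of the respiratory chain rose and none fell. The count that rose went to 2 without WT library 3, 5 without WT library 4, KO library 2 or KO library 4, and 24 without KO library 1. This set of mitochondrial genes was put together after the values had been seen.

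Plet1, a surface protein that marks repairing colon epithelium, had 73.05, 22.6 and 14.9 CPM in the WT and 506, 444 and 713 CPM in the KO libraries. Each KO library held several times the level of the highest WT library. The log2 fold change was 3.91 (SE 0.58, adjusted p = 0.00199). In untreated colon it was 1.29 and 2.04 CPM in untreated WT and 1.44 and 0.801 CPM in untreated KO libraries. Clca3b, a relative of Clca1, had 415, 294 and 384 CPM in the WT and 1428, 1237 and 1390.0 CPM in the KO libraries (log2 fold change 1.89, SE 0.16, adjusted p = 0.000216), opposite to Clca1. Of 28 genes of repair, 11 rose and 1 fell, among them Plaur, the urokinase receptor (6.19 ± 1.96 CPM in WT and 34.8 ± 12.2 CPM in KO), Il33 (4.18 ± 2.41 CPM in WT and 23.03 ± 16.4 CPM in KO), Anxa1, Anxa2 and the EGF receptor ligand Hbegf (19.7 ± 7.31 CPM in WT and 47.2 ± 15.4 CPM in KO), whose call was lost without WT library 2 or 3 or KO library 4 (adjusted p = 0.0605 to 0.0826). Plat, which encodes tissue plasminogen activator, had 6.46, 6.18 and 4.89 CPM in the WT and 67.97, 24.2 and 26.3 CPM in the KO libraries (log2 fold change 2.76, SE 0.41, adjusted p = 0.00207), with KO library 1 the highest.

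Of 29 keratins and cornified envelope genes, 15 rose and 2 fell (median log2 fold change 1.10). Ly6d had 6.69, 2.89 and 8.01 CPM in the WT and 56.4, 37.2 and 29.4 CPM in the KO libraries (log2 fold change 2.81, SE 0.58, adjusted p = 0.0079). Sprr2h, an envelope protein, had 3.79, 0.571 and 0.673 CPM in the WT and 28.997, 16.9 and 40.9 CPM in the KO libraries (log2 fold change 4.11, SE 0.74, adjusted p = 0.00454). No overlap between genotypes was seen for either. Krt7, a keratin of ducts and injured epithelium, had 140.2, 111 and 114 CPM in the WT and 348, 309 and 230.0 CPM in the KO libraries (log2 fold change 1.28, SE 0.17, adjusted p = 0.00116), and the cross-linking enzyme Tgm2 rose from 73.6 ± 19.97 to 209 ± 53.000 CPM (a log2 fold change of 1.502 with SE 0.24, adjusted p = 0.00256). Sprr2a2, one of a cluster of near-identical genes, rose from 5433 ± 705 to 9749.7 ± 3391 CPM, and how reads were split between it and its neighbours Sprr2a1 and Sprr2a3 is uncertain. The call was lost for Sprr2a2 without any 1 of 7 libraries, WT library 3 among them (adjusted p = 0.0537 to 0.127). Tgm3 fell from 736 ± 158 to 248 ± 139 CPM, a call lost without WT library 3 or 4 (adjusted p = 0.0601 to 0.0662). Krt5 and Krt14, the keratins of skin and anal squamous epithelium, were low in both groups and did not pass the test (0.14 ± 0.243 CPM in WT and 0.0823 ± 0.142 CPM in KO for Krt5, and 1.13 ± 0.613 CPM in WT and 2.08 ± 0.782 CPM in KO for Krt14, adjusted p = 0.796 and 0.155). Over 7 tested markers of skin and anal epithelium, these keratins among them, the summed level was 133 to 224 CPM in WT and 304 to 449 CPM in KO libraries, higher in KO in every library. Sfn, an adaptor protein also made by other epithelia, held most of it (from 180.0 ± 49.5 to 361 ± 73.6 CPM, adjusted p = 0.0073), and it was the 1 gene of the 7 that rose, with none lower. The part of this tissue in the counts of the keratin and envelope list was not tested. In the fit without WT library 3, 9 of the 29 keratin and envelope genes rose and 1 fell. Cers3, the ceramide synthase of skin, had 0.349, 0.0451 and 0.206 CPM in the WT and 18.01, 6.83 and 7.15 CPM in the KO libraries (log2 fold change 5.73, SE 0.79, adjusted p = 0.0015). Prss22, a serine protease, had 0.0952, 0.346 and 0.934 CPM in the WT and 42.3, 18.9 and 13.9 CPM in the KO libraries (log2 fold change 5.74, SE 0.84, adjusted p = 0.00263).

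Glycolysis and the response to low oxygen rose together, in 18 of 27 genes with none lower (median log2 fold change 0.57). Ldha, lactate dehydrogenase, had 1477, 1063 and 1186 CPM in the WT and 1826, 2429.9 and 2449.9 CPM in the KO libraries (log2 fold change 0.85, SE 0.16, adjusted p = 0.00493). Slc16a3, which exports lactate, had 19.9, 15.4 and 13.6 CPM in the WT and 55.004, 78.9 and 50.9 CPM in the KO libraries (log2 fold change 1.92, SE 0.23, adjusted p = 0.000895). Pfkfb3, which speeds glycolysis, had 29.6, 20.6 and 32.8 CPM in the WT and 71.3, 47.5 and 139 CPM in the KO libraries (log2 fold change 1.63, SE 0.38, adjusted p = 0.0124). No KO library overlapped WT for these genes, and Pfkfb3 varied most among KO libraries. Car9 and Adm, targets of HIF, rose by 0.91 and 1.89 on the log2 scale. Without WT library 3, 9 of the 27 rose, and Pfkfb3 missed the threshold (adjusted p = 0.0534). Metallothioneins and targets of NRF2 rose in 13 of 27 cases with none lower. Gpx2, the glutathione peroxidase of gut epithelium, had 529.9, 438 and 566 CPM in the WT and 2149, 1616 and 1640.1 CPM in the KO libraries (log2 fold change 1.82, SE 0.19, adjusted p = 0.000531), a gain that put it among the 10 called genes with the most reads gained. Mt2, a metallothionein that binds zinc and copper, had 17.9, 23.8 and 22.7 CPM in the WT and 131, 156 and 77.05 CPM in the KO libraries (log2 fold change 2.499, SE 0.29, adjusted p = 0.00092). Hmox1, heme oxygenase, had 8.34, 9.62 and 7.81 CPM in the WT and 36.2, 17.7 and 16.9 CPM in the KO libraries (log2 fold change 1.46, SE 0.28, adjusted p = 0.00519). All KO libraries were above all WT libraries. Leaving out WT library 3, 8 rose and 1 fell.

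Genes of the cell cycle rose in 22 of 32 cases with none lower. Birc5, needed in mitosis, had 29.5, 29.98 and 34.02 CPM in the WT and 124, 95.6 and 82.6 CPM in the KO libraries (log2 fold change 1.69, SE 0.19, adjusted p = 0.000665). Mki67, the common marker of dividing cells, had 163, 128 and 167 CPM in the WT and 280.2, 191 and 208 CPM in the KO libraries (log2 fold change 0.57, SE 0.18, adjusted p = 0.0413), and its call was lost without any WT library with DSS, any untreated KO library or KO library 1 (adjusted p = 0.0569 to 0.147). Fewer genes passed without WT library 3 (7), WT library 2 (13) or KO library 1 (14, with 1 lower). Among 23 crypt and stem cell genes, 4 rose, 2 fell and 17 were not called, near or below the 15.0% and 14.8% of all genes, and leaving out WT library 3 gave 2 and 1. Prom1 had 55.1, 39.2 and 34.4 CPM in the WT and 226, 116 and 104 CPM in the KO libraries (log2 fold change 1.79, SE 0.29, adjusted p = 0.00296) and Ascl2 rose from 3.27 ± 0.756 to 5.54 ± 1.47 CPM. Lgr4 and Sox9 did not pass (271 ± 25.2 CPM in WT and 225 ± 63.6 CPM in KO for Lgr4, and 39.8 ± 4.800 CPM in WT and 36.8 ± 7.24 CPM in KO for Sox9, adjusted p = 0.281 and 0.641). For Prom1 the KO libraries without DSS were also high (26.8 and 28.2 CPM in untreated WT and 102 and 105 CPM in untreated KO libraries), and the interaction was not called (adjusted p = 0.862). The call was lost for Ascl2 without any 1 of 8 libraries, WT library 3 among them (adjusted p = 0.0613 to 0.128). Of 32 apoptosis genes, 9 rose and 5 fell, beside 15.0% and 14.8% of all genes. The median log2 fold change of this list was -0.06, and with upper-quartile factors 6 rose and 9 fell, so it had no common direction. Ripk3, a kinase of necroptosis, and Bax rose (63.5 ± 14.1 CPM in WT and 128 ± 23.3 CPM in KO for Ripk3, and 29.3 ± 1.04 CPM in WT and 52.1 ± 6.02 CPM in KO for Bax). In the fit without WT library 3, 5 rose and 2 fell, without WT library 4, 7 and 2, without KO library 2, 8 and 3, and without KO library 4, 7 and 9.

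Of 17 tested genes of neutrophil-attracting chemokines, their inducers and receptors, 9 rose and none fell (median log2 fold change 2.52). Cxcl5, made by epithelium and stroma, had 8.25, 4.13 and 8.01 CPM in the WT and 331, 125 and 437 CPM in the KO libraries. The lowest KO library lay more than 10-fold above the highest WT library. The log2 fold change was 5.45 (SE 0.52, adjusted p = 0.000474). Cxcl2 had 2.92, 0.932 and 3.52 CPM in the WT and 56.3, 19.8 and 64.5 CPM in the KO libraries (log2 fold change 4.25, SE 0.59, adjusted p = 0.00212). Cxcl1 had 0.555, 0.496 and 0.742 CPM in the WT and 15.3, 8.94 and 47.6 CPM in the KO libraries (log2 fold change 5.32, SE 0.63, adjusted p = 0.000939). KO library 2 was the lowest of the KO libraries for all of these. Without WT library 3, 5 of the 17 rose. Among members with at least 10 counts in every library, 2 rose and the median log2 fold change was 0.69. The receptors Csf3r and Fpr2 did not pass (5.07 ± 1.75 CPM in WT and 8.79 ± 3.77 CPM in KO for Csf3r, and 2.07 ± 0.891 CPM in WT and 5.02 ± 3.49 CPM in KO for Fpr2, adjusted p = 0.138 and 0.0766).

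Cxcl1, Cxcl2 and Cxcl3 lie next to each other on chromosome 5, and each promoter holds a match to the NF-κB site, searched on both strands as GGGA, any base and TTTCC. Of the 17 genes of the list 14 had a promoter in the RefSeq set, and 3 of these 14 (21.4%) held the site, beside 135 of all 32851 promoters (0.411%). The stretches are shown with the site in capitals, 5′ to 3′ on the strand of the gene.
Cxcl1 (chr5:90891154-90891203, plus strand): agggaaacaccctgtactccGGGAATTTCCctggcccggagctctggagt
Cxcl2 (chr5:90903782-90903831, plus strand): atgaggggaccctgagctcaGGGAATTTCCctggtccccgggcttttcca
Cxcl3 (chr5:90786008-90786057, plus strand): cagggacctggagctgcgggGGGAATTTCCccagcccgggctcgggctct
The same 10 letters, GGGAATTTCC, stand in all 3 stretches. These 3 genes are neighbours with the same letters, so their share in the list is not a separate finding for each gene. It was not tested against the share of all promoters. In a list of NF-κB and TNF genes, 28 had a promoter and 3 held the site. Of these 3, Nfkbia rose, and Ltb and Nfkb2 did not. Over all 83 tested genes with the site in a promoter, 17 rose and 11 fell, beside the background of 15.0% and 14.8%. The Cxcl5 promoter held no match of these letters in its window.

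**Figure D4:**
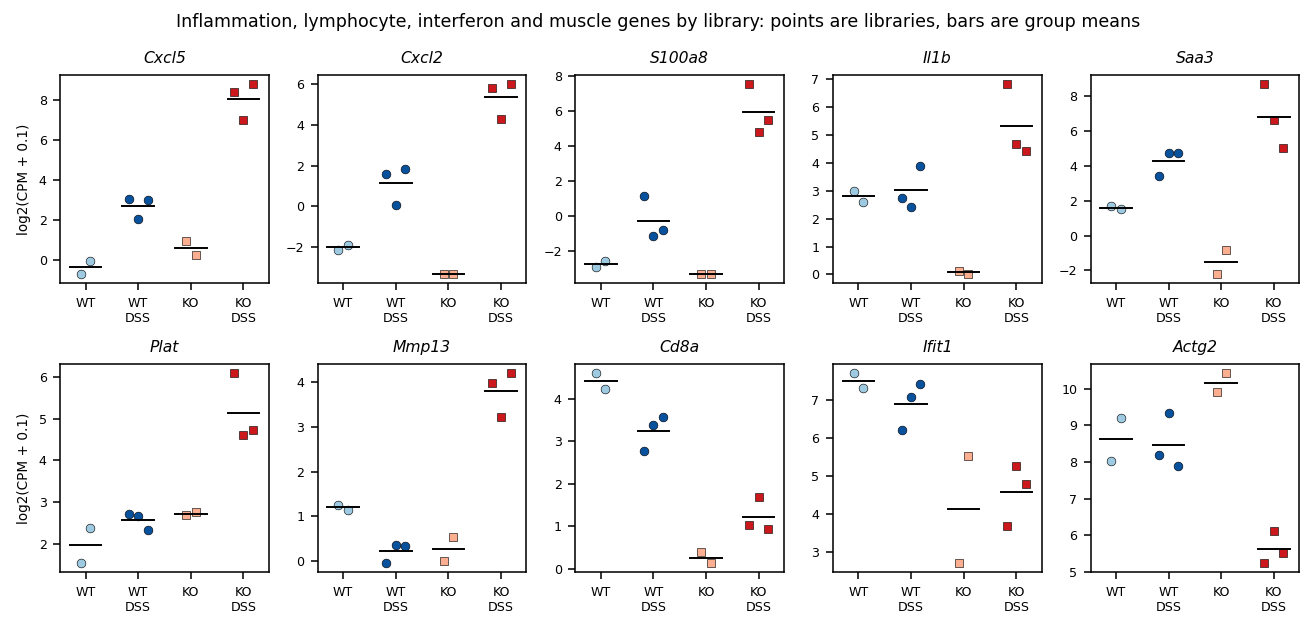
Levels of 10 genes of inflammation, lymphocytes, interferon and muscle in each of the 10 libraries, as log2(CPM + 0.1), with a point for each library (circles WT, squares KO) and a bar for the mean of each group. DSS-treated KO libraries lie above all others for Cxcl5 through Mmp13 and below DSS-treated WT libraries for Cd8a, Ifit1 and Actg2, and untreated KO libraries are low for Cd8a and highest for Actg2.

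Of 24 genes that identify neutrophils, 15 rose and 1 fell (median log2 fold change 2.95). S100a8, a subunit of calprotectin, had 2.08, 0.346 and 0.467 CPM in the WT and 185, 27.4 and 44.02 CPM in the KO libraries (log2 fold change 6.49, SE 0.99, adjusted p = 0.00306). KO library 1 held the most, as it did for Il1b, with 6.55, 5.28 and 14.6 CPM in the WT and 112, 25.3 and 21.3 CPM in the KO libraries (log2 fold change 2.59, SE 0.65, adjusted p = 0.0177), and for the acute-phase gene Saa3, with 10.5, 26.2 and 26.5 CPM in the WT and 415, 99.05 and 33.1 CPM in the KO libraries (log2 fold change 3.11, SE 0.81, adjusted p = 0.0206). The calls of Il1b and Saa3 were lost without WT library 2 (adjusted p = 0.0515 and adjusted p = 0.0564) or WT library 3 (adjusted p = 0.0704 and adjusted p = 0.0623), and that of Saa3 also without KO library 1 (adjusted p = 0.0699). Of 21 tested genes of the IL-1 family, 6 rose and 5 fell (median log2 fold change -0.34). Their summed level was 2880 to 3443 CPM in WT and 1422 to 2714 CPM in KO libraries. Ly6g, which encodes the usual surface marker of neutrophils, had a high level in both groups and did not pass the test (274 ± 52.8 CPM in WT and 350.5 ± 57.8 CPM in KO, adjusted p = 0.14). In WT it stood beside 0.346 to 2.08 CPM of S100a8, and whether the level of either gene follows the number of neutrophils was not tested. The summed level of the 24 genes overlapped, at 823 to 1286 CPM in WT and 892 to 1381 CPM in KO libraries. It was 1590 and 1139.5 CPM in untreated WT and 487 and 531 CPM in untreated KO libraries. Mmp13, a collagenase, had 0.872, 1.19 and 1.17 CPM in the WT and 15.9, 9.26 and 18.4 CPM in the KO libraries (log2 fold change 3.75, SE 0.30, adjusted p = 0.000174), and 10 of 22 metalloproteinases and their inhibitors rose while Timp2, Timp3 and Timp4 fell. Calls were lost for Timp2 without any 1 of 9 libraries, WT library 3 among them (adjusted p = 0.0519 to 0.174) and Timp4 without WT library 2, WT library 3 or KO library 4 (adjusted p = 0.06 to 0.0826). In the epithelial antimicrobial list 9 of 26 rose and 1 fell, the latter Reg4 (179 ± 36.9 CPM in WT and 62.04 ± 9.699 CPM in KO, log2 fold change -1.53, SE 0.17, adjusted p = 0.000649). When every library had to hold at least 10 counts, only 2 genes of the chemokine list and 3 of the neutrophil list remained called higher, since the others were close to 0 in some libraries. The median log2 fold changes of the members kept were 0.69 and 0.83. The medians over all tested members, 2.52 and 2.95, thus depend on genes near 0 in some libraries.

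Of 32 T and NK cell genes 20 fell and 1 rose. Cd8a had 6.77, 10.3 and 11.8 CPM in the WT and 1.96, 3.13 and 1.83 CPM in the KO libraries (log2 fold change -2.06, SE 0.27, adjusted p = 0.00121). Gzmb, a protease of killer cells, fell from 10.3 ± 4.49 to 2.37 ± 0.226 CPM (a log2 fold change of -2.12 with SE 0.32, adjusted p = 0.0018). The groups did not overlap for Cd8a. Untreated KO colon was low as well, with Cd8a at 24.2 and 18.8 CPM in untreated WT and 1.21 and 1.001 CPM in untreated KO libraries, so the genotypes differed less with DSS than without (interaction log2 fold change 2.23, adjusted p = 0.00584). The 1 gene that rose was Gata3 (0.71 ± 0.0299 CPM in WT and 2.52 ± 0.402 CPM in KO). Without WT library 3 the count that fell was 10, without WT library 4 it was 12 and without KO library 2 it was 13. None of 12 class II antigen presentation genes passed edgeR's test (1 was lower at an unadjusted p under 0.05, and DESeq2 called 1 lower). Of 25 B and plasma cell genes only Ighg2c fell (206 ± 98.2 CPM in WT and 6.82 ± 6.42 CPM in KO, log2 fold change -4.903, SE 1.02, adjusted p = 0.00831). Igha did not pass (867 ± 158 CPM in WT and 983 ± 514 CPM in KO, adjusted p = 0.806). Ighg2c has near-identical copies, and its reads are uncertain.

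Interferon-stimulated genes fell in 21 of 40 cases with none higher (median log2 fold change -1.53), and this count depended on single libraries. It was 7 without KO library 1, 8 without WT library 3, 10 without WT library 4 and 32 without WT library 2. The gap was also there without DSS, with list sums of 7538 and 6761 CPM in untreated WT and 941 and 1254 CPM in untreated KO libraries. With DSS the sums were 2749 to 7182 CPM in WT and 1095 to 2894 CPM in KO libraries. The interaction was called in the higher direction for 8 of the 40 genes and in the lower direction for none. Ifit1, an antiviral RNA-binding protein, had 74.3, 135 and 172 CPM in the WT and 12.7, 38.5 and 27.8 CPM in the KO libraries (log2 fold change -2.28, SE 0.66, adjusted p = 0.0309). WT library 2 was the lowest WT library, and the call of Ifit1 was lost without WT library 3 (adjusted p = 0.0785), WT library 4 (adjusted p = 0.0789), KO library 1 (adjusted p = 0.103) or KO library 4 (adjusted p = 0.0722). B2m, the common chain of class I molecules, had 1385, 2526 and 2432 CPM in the WT and 676, 1363 and 1141 CPM in the KO libraries (log2 fold change -0.996, SE 0.29, adjusted p = 0.0274), a call lost without WT library 3 or 4 or KO library 1 or 4 (adjusted p = 0.0523 to 0.0983). H2-K1 and H2-D1 did not pass (2519.8 ± 541 CPM in WT and 1836 ± 561 CPM in KO for H2-K1, and 2398 ± 402 CPM in WT and 2251 ± 586 CPM in KO for H2-D1, adjusted p = 0.173 and 0.755). Of 22 class I genes 3 fell and none rose, a share near the 14.8% of all genes that fell. The count was 0 without WT library 3 or 4 and 10 without WT library 2. Without DSS the summed level of the class I list was 13792 and 13586 CPM in untreated WT and 3329 and 3652 CPM in untreated KO libraries. With DSS it was 7380 to 11474 CPM in WT and 5002 to 8991 CPM in KO libraries. The interaction was called in the higher direction for 16 of the 22. Il10, Il22 and Ifng, cytokines of lymphocytes, stayed under 3 CPM in the 6 libraries and did not pass (adjusted p = 0.604, 0.382 and 0.767).

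All 22 smooth muscle genes fell (median log2 fold change -1.82). Actg2, the actin of gut muscle, had 292, 645 and 238 CPM in the WT and 37.8, 69.8 and 45.3 CPM in the KO libraries (log2 fold change -2.94, SE 0.46, adjusted p = 0.00266). Myh11, its myosin, fell from 679 ± 217 to 94.5 ± 30.01 CPM (a log2 fold change of -2.85 with SE 0.29, adjusted p = 0.00049). No overlap between genotypes was seen for Actg2. Untreated KO colon held the most muscle RNA, with 14923 and 17575 CPM over the 22 genes beside 5406 and 8054 CPM in untreated WT colon, and the interaction was called in the lower direction for all 22. Of 11 genes of the interstitial pacemaker cells, which pace gut contraction, 8 fell. Kit had 30.98, 30.8 and 31.9 CPM in the WT and 13.4, 13.9 and 14.4 CPM in the KO libraries (log2 fold change -1.17, SE 0.08, adjusted p = 6.81e-05) with hardly any spread within the groups. Ano1, their chloride channel, had 254, 279 and 213 CPM in the WT and 62.7, 130.2 and 124 CPM in the KO libraries (log2 fold change -1.24, SE 0.24, adjusted p = 0.00624). Without WT library 3 the count was 5 and without WT library 4 it was 4. Of 25 genes of enteric neurons and glia, 14 fell and none rose, such as Nos1 (13.2 ± 2.72 CPM in WT and 5.98 ± 2.08 CPM in KO) and Sox10 (2.37 ± 0.39 CPM in WT and 0.848 ± 0.337 CPM in KO).

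Of 38 collagens, laminins and related genes 12 fell and 1 rose, among them Postn (142 ± 69.4 CPM in WT and 53.8 ± 9.94 CPM in KO) and Fn1 (223 ± 135 CPM in WT and 79.1 ± 20.6 CPM in KO), of which calls were lost for Postn without KO library 1 (adjusted p = 0.0505) and Fn1 without WT library 3, KO library 1 or KO library 4 (adjusted p = 0.0595 to 0.0697), while the main fibrillar collagens Col1a1 and Col3a1 did not pass (86.8 ± 72.1 CPM in WT and 49.3 ± 21.6 CPM in KO for Col1a1, and 282 ± 229 CPM in WT and 129.6 ± 35.9 CPM in KO for Col3a1, adjusted p = 0.298 and 0.129). The count that fell was 5 without KO library 1, 6 without KO library 4 and 6 without WT library 3. Of 35 signals of the stromal niche 9 fell and none rose, among them Sfrp4, a secreted inhibitor of WNT signalling, with 0.539, 6.52 and 3.996 CPM in the WT and 0.653, 0.402 and 0.126 CPM in the KO libraries (log2 fold change -3.19, SE 0.85, adjusted p = 0.0222). WT library 2 lay within the KO range of Sfrp4. The call was lost for Sfrp4 without WT library 3, KO library 2 or KO library 4 (adjusted p = 0.0573 to 0.0767). The 9 went to 2 without WT library 3, 3 without KO library 4, 4 without WT library 4 and 5 without KO library 2. The muscle level moved in the same direction as all these lists, and its part in them was not tested.

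Hormone genes of enteroendocrine cells fell in 10 of 25 cases and rose in 2. Chga, a protein of their granules, Insl5 and Pyy fell (44.4 ± 1.695 CPM in WT and 31.4 ± 1.17 CPM in KO for Chga, 50.5 ± 0.76 CPM in WT and 25.4 ± 3.52 CPM in KO for Insl5, and 125 ± 3.14 CPM in WT and 72.8 ± 13.4 CPM in KO for Pyy). Neurog3, which starts this lineage, rose (1.26 ± 0.656 CPM in WT and 4.12 ± 1.21 CPM in KO, log2 fold change 1.71, SE 0.42, adjusted p = 0.0144) though it was lost without WT library 4 (adjusted p = 0.0514). Of 25 tight junction genes, 6 fell, 3 rose and 16 were not called, beside 14.8% and 15.0% of all genes, and without WT library 3 the counts were 4 and 1. Cldn8 had 99.6, 91.2 and 87.9 CPM in the WT and 173, 186 and 258 CPM in the KO libraries (log2 fold change 1.15, SE 0.15, adjusted p = 0.00115). Cldn4 had 32.8, 22.3 and 31.2 CPM in the WT and 95.9, 70.1 and 56.4 CPM in the KO libraries (log2 fold change 1.37, SE 0.33, adjusted p = 0.0149), the latter lost without WT library 3 or KO library 1 (adjusted p = 0.0526 to 0.0621). The groups did not overlap for either claudin. Tjp1, which encodes ZO-1, did not pass (181 ± 5.66 CPM in WT and 151 ± 31.6 CPM in KO, adjusted p = 0.188), and Cldn1, at 0.841, 3.65 and 1.21 CPM in the WT and 0.595, 0.887 and 0.568 CPM in the KO libraries, fell just short (log2 fold change -1.47, SE 0.51, adjusted p = 0.0521).

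Clock genes split along the arms of the circadian oscillator. Of 19 tested, 12 fell and 4 rose. Dbp, an output gene that the clock drives strongly, had 48.7, 69.5 and 51.8 CPM in the WT and 3.33, 8.59 and 5.91 CPM in the KO libraries. It was lower in each KO library by far more than the spread of either group. The log2 fold change was -3.26 (SE 0.30, adjusted p = 0.000429). The other output genes Hlf and Tef, the period genes Per3, Per2 and Per1, and the repressors Nr1d1 and Nr1d2 fell with it, Per3 with 69.05, 70.4 and 55.5 CPM in the WT and 10.02, 20.4 and 19.6 CPM in the KO libraries (log2 fold change -1.97, SE 0.24, adjusted p = 0.000912). Arntl, which encodes BMAL1 of the opposite arm, had 11.04, 11.1 and 11.2 CPM in the WT and 25.1, 24.4 and 27.05 CPM in the KO libraries (log2 fold change 1.198, SE 0.09, adjusted p = 0.000103), and Npas2, Nfil3 and Cry1 also rose (1.08, 1.79 and 0.88 on the log2 scale). Clock did not pass (103 ± 5.05 CPM in WT and 99.6 ± 18.004 CPM in KO, adjusted p = 0.762). The libraries of a group lay close together for most of these genes. In untreated colon Dbp had 41.5 and 35.9 CPM in untreated WT and 119 and 122 CPM in untreated KO libraries and Arntl 25.8 and 26.5 CPM in untreated WT and 25.1 and 26.6 CPM in untreated KO libraries, so Dbp lay higher in untreated KO than in untreated WT colon while the Arntl values overlapped. No source used here gives the hour at which the colons were taken. Leaving out any 1 library left 10 to 12 genes lower and 4 higher.

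**Figure D5:**
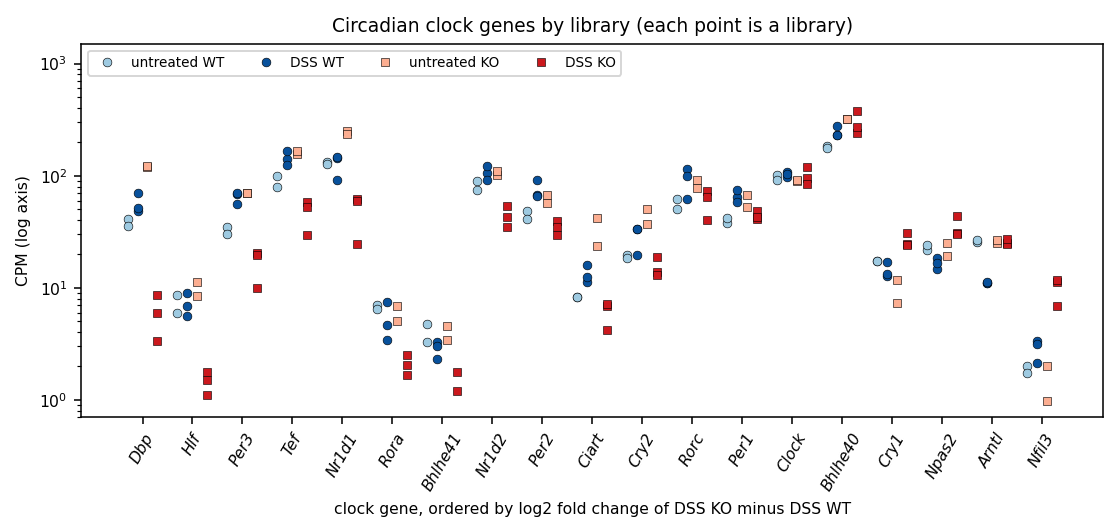
Levels of the 19 tested clock genes in each of the 10 libraries, in CPM on a log axis, ordered from the largest fall (left) to the largest rise (right) of DSS-treated KO against DSS-treated WT colon; circles are WT and squares KO libraries. DSS-treated KO libraries (red) are the lowest group from Dbp to Nr1d2, and for Arntl it is the DSS-treated WT libraries that stand apart at about 11 CPM.

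Within 10 Mb of Dnajc10, 39 of 136 tested genes were called (28.7%), close to the 29.9% of the rest of chromosome 2. Nnt, a mitochondrial enzyme whose gene is disrupted in the substrain C57BL/6J and intact in C57BL/6N, had 40.8, 39.5 and 41.7 CPM in the WT and 13.9, 11.97 and 13.8 CPM in the KO libraries (log2 fold change -1.62, SE 0.09, adjusted p = 5.12e-05), and 41.2 and 42.2 CPM in untreated WT and 21.5 and 23.03 CPM in untreated KO libraries. WT libraries were all near 40 CPM and KO libraries near 12 to 23 CPM, with or without DSS. Summed levels were 154 to 193 CPM in WT and 116 to 135 CPM in KO libraries for 14 fat genes, 12.3 to 21.4 and 6.63 to 7.55 CPM for 9 skeletal muscle genes, and 168 to 236 and 73.8 to 97.9 CPM for 12 genes of the small bowel, where Apob fell (98.7 ± 9.55 CPM in WT and 31.3 ± 4.82 CPM in KO, log2 fold change -1.66, SE 0.24, adjusted p = 0.00162). For 3 pancreas genes the sums were 124 to 151 CPM in WT and 43.9 to 89.0 CPM in KO libraries. The part of these tissues in the results was not tested.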

How the data were processed

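Total colon RNA was made into TruSeq stranded mRNA libraries, and the authors deposited 1 table of whole-number read counts per gene (unit: counts) for 10 libraries. The tools in the submitters' notes are StringTie 2.1.3b, HISAT2 2.1.0, Bowtie2 2.3.4.1 and Trimmomatic 0.38, with mm10 as the build and no roles stated. No source used here says how multi-mapping reads and strand were handled, so levels of near-identical, overlapping or antisense genes are uncertain. The table also holds 30 other per-sample columns and the authors' own fold changes and p-values, none of which were used.

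Count columns were assigned to groups by their names, since their numbers do not match those of the sample titles. Counts were tested in R 4.3.3 with edgeR 4.0.16 (limma 3.58.1), with TMM factors, the default filterByExpr (20472 of 29320 genes kept) and a robust quasi-likelihood fit of 4 group means over all 10 libraries, two-sided. SEs of log2 fold changes were derived from this fit. The steps were tested on simulated counts. Within groups, libraries differed beyond sampling noise (mean chi-square per gene 36.8 to 153), so no library looked like a repeat deposit of another, which does not show that they came from separate mice.

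Members and all 63 gene lists (1451 genes, 1407 matched, 1351 tested) were chosen with earlier results of these data known. Named genes were Dnajc10, the 20 largest rises and falls that were called, had groups without overlap and averaged 3 or more on the log2 CPM scale, the 10 that gained or lost the most CPM, up to 4 called and 2 uncalled members of each list, the genes of ER function and mucus the study measured, and called genes near Dnajc10, of which some genes are not reported here. Of the 212 genes named in the text, 61 lie outside this rule and were chosen for their role after their values were seen. Positions were matched for 29251 genes, and promoters are those of RefSeq for GRCm38.p6.

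Alternatives were RLE and upper-quartile factors, DESeq2 1.42.0, other filters, a fit of the DSS-treated groups alone, a block for library number, an unadjusted threshold and leaving out each library.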

Additional observations from a re-analysis of the deposited data

Results flagged for a closer look

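The difference between the genotypes was not the same with and without DSS for 5507 genes, tested as the interaction in the fit of all 10 libraries with edgeR's quasi-likelihood test and Benjamini-Hochberg adjustment. Values are log2 fold changes of the DSS-treated genotypes minus those of the untreated genotypes, for genes picked from the results because their levels are given above. Of the ER genes, Hspa5 had 1.504 and Creld2 1.94. Of the mucus and epithelial genes, Clca1 had -2.45, Muc3 -1.75, Abcb1a -3.39, Gpx2 2.50, Clca3b 2.21 and Plet1 4.503. The inflammation genes Cxcl5 and Mmp13 had 4.40 and 4.70. The mitosis gene Birc5 had 3.23. The muscle gene Actg2 had -4.40, which joins a low level in DSS-treated KO libraries to a high level in untreated KO libraries. The T cell gene Cd8a had 2.23, with KO libraries low in both treatments and the gap narrower with DSS. The clock genes Dbp and Arntl had -4.90 and 1.22.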

How the results depend on the processing

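With DSS, 6092 genes differed between KO and WT colon in the main analysis and 7209 with DESeq2, 6063 with RLE factors, 6018 with at least 10 counts in every library, 5420 with no filter and 4322 with only the DSS-treated groups in the fit. At an unadjusted p under 0.01 and a fold over 3, 878 genes passed, and 2266 did for the interaction (5507 in the main analysis). Leaving out 1 library gave 3243 to 5790 genes, the lowest without WT library 3, and 2867 to 5897 for the interaction, where each untreated library, left alone in its group with its partner removed and assumed to vary like the others, brought the count to 2867 to 3366. Deviations of same-numbered libraries had correlations of -0.188 to 0.238. These cannot decide whether library numbers pair the samples, since they were not compared with those of differently numbered libraries. The replicate block gave 3772 genes, and 4433 for the interaction. The number 1 occurs in KO library 1 alone, so the block fits that library exactly. Over the 212 genes named, 3589 values under the alternatives held 193 lost calls, 19 gained calls and no reversed direction among called genes. The block lost 25, the fit of the DSS-treated groups 16, the absence of a filter 8, upper-quartile factors 3, and DESeq2 and RLE factors 1 each. DSS-treated libraries held 54392227 reads or more, so counting error is small for all but genes near 0 CPM. The cause of these moves was not tested.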
